A study of Mus musculus with 16 samples.

Results

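Syt7, Ttc9c, Slc47a1, Inca1 and Rad51b are the 5 of 24421 listed genes whose read counts ranked first by unadjusted p for the enriched against the moderate folic acid diet, averaged over genotypes. They were chosen on that diet contrast, so every diet difference given for them is a description and carries no test. RNA was sequenced from heads of F3 mouse embryos at embryonic day 8.5, cut from the first arch up to the otic vesicle, with 4 libraries in each of 4 groups. Enriched diet mutants and moderate diet mutants were homozygous Ift88-null, and enriched diet wild type and moderate diet wild type embryos were labelled WT. The enriched diet held 10 ppm folic acid and the moderate diet 2 ppm, and families stayed on it for 3 generations. The labels give neither strain, litter nor pooling, so differences between the families kept on each diet and an effect of the diet itself cannot be told apart, and each p-value reflects only how these libraries vary, which may in part be technical. The study concerns effects of folic acid supplementation on cilia.

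Folic acid is reduced to tetrahydrofolate, which carries one-carbon units for the synthesis of thymidylate, purines and methionine. Ift88 encodes a protein of intraflagellar transport, and cilia are lost without it. None of the 5 genes is a known enzyme or carrier of folate. Syt7 encodes synaptotagmin 7, a calcium sensor for the fusion of vesicles and lysosomes with the cell membrane. Ttc9c encodes a small protein of tetratricopeptide repeats, a fold that often binds chaperones. Slc47a1 encodes MATE1, which exports organic cations in exchange for protons and is best known from kidney and liver. Inca1 encodes an inhibitor of the kinase CDK2 bound to cyclin A1. Rad51b encodes a protein that acts in the repair of DNA breaks by homologous recombination.

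Totals assigned to genes were 19249433 to 44267434 counts in enriched diet libraries and 20875382 to 39744994 in moderate diet libraries. Ift88, the check of the genotype labels, held 2.005 to 8.61 CPM (counts scaled to a common library total) in the 8 mutants and 9.295 to 20.9 CPM in the 8 wild type libraries. The lowest wild type library was replicate 2 of the moderate diet, at 9.295 CPM, and the others held 17.85 CPM or more. That library lay nearer to the highest mutant, enriched diet replicate 2 at 8.61 CPM. The check thus does not settle its genotype label, and the reason was not tested. The labels put 5 males and 3 females on the enriched diet and 2 males and 6 females on the moderate diet. In 3 libraries, all on the moderate diet, Xist and Y-linked counts went against the sex label, which the fit below used. By these counts moderate diet mutant replicate 1 was female, and moderate diet mutant replicate 2 and moderate diet wild type replicate 2 were male. Of 14 markers of head neural tissue and mesenchyme, 12 averaged at least 1 CPM, and their summed level was 959.5 to 1131 CPM on the enriched diet and 952 to 1156 CPM on the moderate diet. Summed erythroid markers were 723 to 3840 CPM on the enriched diet and 1251 to 6546 CPM on the moderate diet, with 1 of 10 at 0 throughout. Summed yolk sac and visceral endoderm markers were 8.70 to 139 CPM on the enriched diet and 8.75 to 40.1 CPM on the moderate diet. On the enriched diet, early neuron markers summed to 160 to 307 CPM, endothelial markers to 386 to 451 CPM and cardiomyocyte markers to 2.015 to 6.11 CPM. On the moderate diet these sums were 148 to 275, 367 to 474 and 2.62 to 6.99 CPM. Decidual and trophoblast markers were 0.340 to 190 CPM on the enriched diet and 0.328 to 3.92 CPM on the moderate diet, with 2 of 10 at 0 throughout. The part of other cell types in the results below was not tested, and in bulk tissue fewer cells of a type and less RNA per cell cannot be told apart.

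No gene passed for the diet averaged over genotypes (quasi-likelihood test of edgeR, p adjusted after Benjamini and Hochberg under 0.05, 0% of 14514 genes tested), and 526 genes, or 3.62%, had an unadjusted p under 0.05. limma-voom also passed 0 genes, with 579 at an unadjusted p under 0.05, and DESeq2 passed 1, Syt7. All 5 genes had an adjusted p of 0.997. The ranking ran Syt7 (unadjusted p = 7.83e-05), Inca1 (0.000663), Ttc9c (0.000857), Slc47a1 (0.000921) and Rad51b (0.00136). Just outside lay Adnp (0.00137), Vill (0.00145) and Ctla2a (0.00170), so the fifth and sixth genes were almost level. In wild type alone 0 genes passed and 354 (2.44%) had an unadjusted p under 0.05, and in mutants alone 0 passed and 1565 (10.8%) did. Per kilobase of exon, the mean level over 16 libraries was highest in Ttc9c, at 23.0 CPM per kilobase (RPKM), followed by Syt7 at 3.98, Rad51b at 1.67, Slc47a1 at 0.698 and Inca1 at 0.407 RPKM. Ttc9c thus exceeded 83.0% of the 14399 tested genes with a known length, and Inca1 13.95%.

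Syt7 was lower on the enriched diet in both genotypes. The gene lies on chromosome 19 from 10389090 to 10453180 of mm10, on the plus strand, and 384 of its 7487 exon bases overlap the long noncoding gene Gm26859 on the other strand, which this unstranded library kit cannot separate. Enriched diet mutant replicates 1 to 4 held 22.45, 28.8, 30.65 and 22.5 CPM, against 33.1, 37.3, 30.82 and 35.2 CPM in moderate diet mutants. In wild type on the enriched diet, replicates 1 to 4 held 21.7, 23.0, 21.1 and 22.9 CPM, against 48.4, 30.9, 35.3 and 32.6 CPM in moderate diet wild type. All 8 enriched diet libraries lay below all 8 moderate diet libraries, with mutant replicate 3 on the enriched diet and mutant replicate 3 on the moderate diet next to each other at the border. This was the only one of the 14514 genes tested without overlap between the diets (0.00689%), a count on the contrast that chose it.

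Group means of Syt7 were 26.1 ± 4.24 CPM (SD, n = 4) in enriched diet mutants and 34.1 ± 2.80 CPM in moderate diet mutants, and 22.2 ± 0.931 CPM in enriched diet wild type and 36.8 ± 7.94 CPM in moderate diet wild type. The log2 fold change for the diet was -0.37 ± 0.14 (SE) in mutants and -0.70 ± 0.14 in wild type. The difference between these diet effects was 0.32 ± 0.19 on the log2 scale and was not tested, since wild type alone also put Syt7 in the first rank. The highest library, moderate diet wild type replicate 1, set part of the wild type value, which was -0.57 without it, and the difference between diet effects was then 0.20. The ranges of enriched diet mutants and enriched diet wild type overlapped, as did those of moderate diet mutants and moderate diet wild type.

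**Figure D1:**
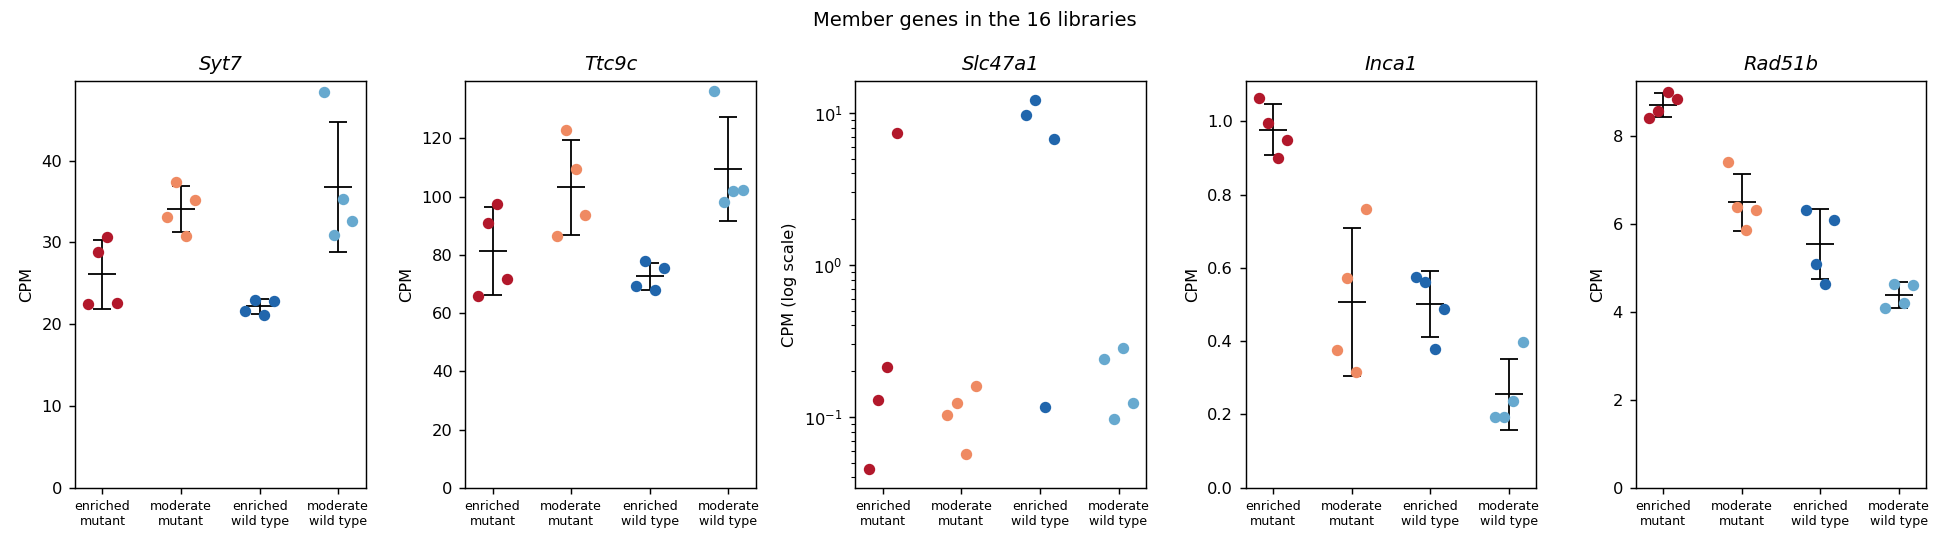
CPM of the 5 genes in each of the 16 libraries, by diet and genotype, with the mean and SD of each group of 4 as bars. Slc47a1 is on a log axis without bars. In Syt7 every enriched diet library is lower than every moderate diet library, and in Slc47a1 4 enriched diet libraries stand at 6.77 to 12.3 CPM while all others are at or under 0.284 CPM.

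Ttc9c followed Syt7 across the libraries. It lies on the same chromosome from 8809075 to 8819333, on the minus strand, 1.57 Mb away from Syt7 with 33 listed genes between them. Its level in enriched diet mutant replicates 1 to 4 was 65.85, 90.8, 97.4 and 71.6 CPM, against 86.6, 123, 109 and 93.8 CPM in moderate diet mutants. The enriched diet wild type libraries held 69.3, 77.8, 67.9 and 75.35 CPM, against 136.2, 98.2, 101.8 and 102.2 CPM in moderate diet wild type. The wild type groups did not overlap, whereas enriched diet mutant replicates 2 and 3 lay inside the range of moderate diet mutants. The same mutant replicates were also the highest enriched diet libraries for Syt7. Replicate 3 also held the 190.3 CPM of decidual and trophoblast markers, and without it the log2 fold change for the diet in mutants was -0.45 for Syt7 and -0.37 for Ttc9c.

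Means of Ttc9c were 81.4 ± 15.1 CPM (SD, n = 4) in enriched diet mutants and 103 ± 16.2 CPM in moderate diet mutants, and 72.6 ± 4.76 CPM in enriched diet wild type and 110 ± 17.8 CPM in moderate diet wild type. The log2 fold change for the diet was -0.30 ± 0.13 (SE) in mutants and -0.52 ± 0.14 in wild type, a difference of 0.22 ± 0.19 that was not tested. Without enriched diet mutant replicate 1, the lowest library, the value in mutants was -0.14. In wild type 1.05% of all genes had every enriched diet library below every moderate diet library, as Syt7 and Ttc9c did, and in mutants 1.74%, as Syt7 did.

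Among 11870 other genes with a mean of at least 1 CPM, the one most like Syt7 over the 16 libraries was Ttc9c, and the one most like Ttc9c was Syt7. Pearson's r of log2 CPM was 0.94 and Spearman's rho 0.87, as a description that includes the diet difference for which both were chosen. With each group's mean removed r was 0.82. It was 0.96 over the 8 enriched diet libraries and 0.73 over the 8 moderate diet libraries. Next most like Syt7 were Herc3 (r = 0.85), a ubiquitin ligase, and Wnt2b (0.83), a Wnt ligand. Next most like Ttc9c were Mfap3 (0.86) and Eif1ad (0.84), and Eif1ad also lies on chromosome 19, from 5366741 to 5371526.

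Of the 33 genes between Ttc9c and Syt7, 29 were tested, and 20 of these were lower and 9 higher on the enriched diet, with a median log2 fold change of -0.03 where all genes tested had a median of -0.00382. Only Fads2 (-0.16, edgeR unadjusted p = 0.00421) and Best1 (-1.79 ± 0.65, unadjusted p = 0.0148) reached an unadjusted p under 0.05, as 3.62% of all genes did. Neither passed after adjustment. Both are named after their values were seen. Best1, a chloride channel gene best known from the retinal pigment epithelium, lies from 9985174 to 10001633. It had 0, 10, 7 and 1 counts in enriched diet mutant replicates 1 to 4, against 9, 9, 7 and 12 counts in moderate diet mutants. Enriched diet wild type replicates 1 to 4 had 6, 1, 0 and 2 counts, against 17, 10, 8 and 16 counts in moderate diet wild type. The enriched diet libraries with 6 or more counts were mutant replicates 2 and 3, which were also the highest of that diet in Syt7 and Ttc9c, and wild type replicate 1, which was not. A count of 0 allows up to 0.06795 CPM in enriched diet mutant replicate 1 and 0.0877 CPM in enriched diet wild type replicate 3, counting error only.

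**Figure D2:**
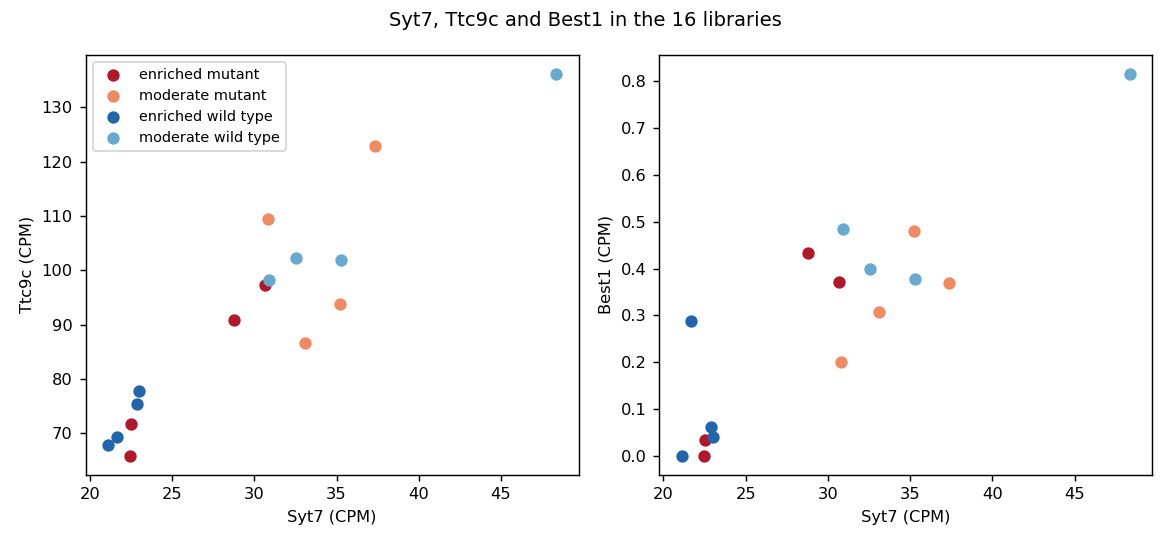
CPM of Ttc9c (left) and Best1 (right) against CPM of Syt7, 1 point per library, coloured by diet and genotype. Enriched diet mutant replicates 2 and 3, at 28.8 and 30.65 CPM of Syt7, lie beside the moderate diet libraries in both panels, and moderate diet wild type replicate 1 is highest in all 3 genes.

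Slc47a1 was present at clear levels in 4 libraries, all on the enriched diet. The gene lies on chromosome 11 from 61343401 to 61378345, on the minus strand. Enriched diet mutant replicates 1 to 4 had 2, 3, 4 and 218 counts, against 3, 3, 2 and 4 counts in moderate diet mutants. Enriched diet wild type replicates 1 to 4 had 202, 305, 4 and 222 counts, against 5, 2, 6 and 5 counts in moderate diet wild type. In CPM, the 4 high libraries stood at 7.39, 9.68, 12.3 and 6.77, and the 12 others at 0.0453 to 0.284. These 4 libraries are also the only ones with at least 10 counts, so the gene passed the filter on low counts only through the diet in which it is high.

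Means of Slc47a1 were 1.94 ± 3.63 CPM (SD, n = 4) in enriched diet mutants and 0.111 ± 0.0428 CPM in moderate diet mutants, and 7.21 ± 5.23 CPM in enriched diet wild type and 0.186 ± 0.0898 CPM in moderate diet wild type. The 2 enriched diet groups overlapped, at 0.0453 to 7.39 CPM in mutants and 0.117 to 12.3 CPM in wild type. The low wild type library of the enriched diet lay within the moderate diet wild type range, and of the 3 low enriched diet mutants 1 lay within, 1 below and 1 above the moderate diet mutant range of 0.0573 to 0.160 CPM. Enriched diet mutant replicate 4 also had the highest summed yolk sac markers, 138.9 CPM, and the other 3 high libraries had 20.99, 33.7 and 14.4 CPM where moderate diet libraries reached 40.1 CPM. The part of these cells in the result was not tested. The log2 fold change for the diet was 3.75 ± 1.66 (SE) in mutants and 5.09 ± 1.39 in wild type, a difference of -1.34 ± 2.60 that was not tested. The value in mutants rested on replicate 4: without it the enriched diet mutants had 9 counts in all, 0.0453 to 0.212 CPM, and the log2 fold change was 0.06. In wild type the value was 3.00 without enriched diet replicate 2, the highest library, and the difference between diet effects was then -0.09.

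The paralog Slc47a2, 541 bases away, had 6 counts over the 16 libraries, with 11 libraries at 0. Among genes within 100 kb only Aldh3a2, a fatty aldehyde dehydrogenase, could be tested, and its log2 fold change for the diet was 0.13 ± 0.06 (unadjusted p = 0.0611). The genes most like Slc47a1 over the 16 libraries were Zfp938 (Pearson's r = 0.85, Spearman's rho 0.41), Xndc1 (0.77, rho 0.58) and Arap3 (0.77, rho 0.63). Since 12 libraries hold 2 to 6 counts of Slc47a1, Pearson's r turns on the 4 high ones.

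Inca1 and Rad51b were higher on the enriched diet in both genotypes and also higher in mutants on both diets. Inca1 lies on chromosome 11 from 70688361 to 70700155, on the minus strand and 9.31 Mb from Slc47a1, with 193 listed genes between them. Rad51b covers chromosome 12 from 79297282 to 79814690, on the plus strand. The RefSeq promoter table (GRCm38.p6) holds 3 of the 5 genes, Ttc9c, Inca1 and Rad51b. Their bases before the start are shown because Inca1 and Rad51b were higher on the enriched diet and in mutants, and Ttc9c was lower on the enriched diet. Only bases outside annotated exons are printed, as chr11:70700286-70700405 on the minus strand for Inca1, chr12:79297032-79297281 on the plus strand for the first start of Rad51b and chr19:8819354-8819544 on the minus strand for Ttc9c. Capitals mark matches on either strand to ACGTG or GCGTG, the core letters of hypoxia response elements, to CCAAT, and to TGATGNAA, letters of sites bound by ATF4.
Inca1: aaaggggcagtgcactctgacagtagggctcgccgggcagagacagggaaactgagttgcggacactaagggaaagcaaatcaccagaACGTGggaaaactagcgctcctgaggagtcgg
Rad51b: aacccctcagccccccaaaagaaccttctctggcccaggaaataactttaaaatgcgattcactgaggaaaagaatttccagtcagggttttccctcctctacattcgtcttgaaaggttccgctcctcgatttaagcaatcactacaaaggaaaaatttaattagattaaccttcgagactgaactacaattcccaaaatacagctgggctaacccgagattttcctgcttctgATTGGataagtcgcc
Ttc9c: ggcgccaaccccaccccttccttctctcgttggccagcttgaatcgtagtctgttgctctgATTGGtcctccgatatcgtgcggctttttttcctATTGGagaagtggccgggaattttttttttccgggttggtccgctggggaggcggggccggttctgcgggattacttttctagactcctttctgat

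Over the whole 250 bases before the start, Inca1 held 2 matches to ACGTG, 1 to GCGTG and 0 to CCAAT, Rad51b 1 to CCAAT and 0 to ACGTG or GCGTG, and Ttc9c 3 to CCAAT, 1 to GCGTG and 0 to ACGTG. TGATGNAA had 0 matches in each. Each strand was counted, so a CACGTG counts as 2 matches to ACGTG. Of 32851 windows of the same length in the table, 16.6% hold ACGTG, 28.2% GCGTG, 33.85% CCAAT and 3.45% TGATGNAA. GC content was 65.6% in the window of Inca1, 55.6% in that of Ttc9c and 42.8% in that of Rad51b.

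Inca1 was measured on few reads, 4 to 47 counts per library. Enriched diet mutant replicates 1 to 4 held 1.065, 0.995, 0.9015 and 0.949 CPM, against 0.376, 0.574, 0.315 and 0.760 CPM in moderate diet mutants. The 4 wild type libraries of the enriched diet held 0.575, 0.563, 0.380 and 0.488 CPM, against 0.192, 0.194, 0.236 and 0.398 CPM in moderate diet wild type. The diet groups did not overlap in mutants, where 1.46% of all genes were higher in every enriched diet library, and in wild type moderate diet replicate 4 reached into the enriched diet range.

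Means of Inca1 ran in the order enriched diet mutants at 0.978 ± 0.0695 CPM (SD, n = 4), moderate diet mutants at 0.506 ± 0.202, enriched diet wild type at 0.501 ± 0.0898 and moderate diet wild type at 0.255 ± 0.0975 CPM. Enriched diet mutants lay above every other library, while moderate diet mutants and enriched diet wild type overlapped. How many of all genes set enriched diet mutants apart in this way was not counted, and the diet contrast chose Inca1. The log2 fold change for the diet was 1.04 ± 0.29 (SE) in mutants and 0.97 ± 0.36 in wild type. Their difference, 0.07 ± 0.48, did not pass (edgeR adjusted p = 0.964, with 0% of genes passing and 1401, or 9.65%, at an unadjusted p under 0.05). Its sign was not stable: leaving out 1 library at a time gave -0.28, without moderate diet wild type replicate 4, to 0.34, without moderate diet mutant replicate 4. It was also below 0 without enriched diet wild type replicate 3 (-0.03) or moderate diet mutant replicate 3 (-0.13).

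Rad51b showed the same order with narrower groups. Enriched diet mutant replicates 1 to 4 held 8.43, 8.57, 9.015 and 8.84 CPM, against 7.41, 6.39, 5.87 and 6.32 CPM in moderate diet mutants. Wild type libraries of the enriched diet held 6.33, 5.11, 4.65 and 6.10 CPM, against 4.08, 4.65, 4.21 and 4.63 CPM in moderate diet wild type. The mutants of the 2 diets did not overlap, with every enriched diet library higher, as for 1.46% of all genes. In wild type, enriched diet replicate 3 and moderate diet replicate 2 were level. Moderate diet mutant replicate 3 was the lowest mutant for both Inca1 and Rad51b.

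Means of Rad51b were 8.71 ± 0.266 CPM (SD, n = 4) in enriched diet mutants, 6.50 ± 0.651 in moderate diet mutants, 5.545 ± 0.8002 in enriched diet wild type and 4.39 ± 0.289 CPM in moderate diet wild type. Moderate diet mutants and enriched diet wild type, neighbours in that order, overlapped in range. The log2 fold change for the diet was 0.40 ± 0.12 (SE) in mutants and 0.29 ± 0.13 in wild type. The difference of 0.12 ± 0.17 did not pass (edgeR adjusted p = 0.771), which does not show that the diet effects are equal. It was 0.04 without enriched diet wild type replicate 3 and 0.19 without enriched diet wild type replicate 1.

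**Figure D3:**
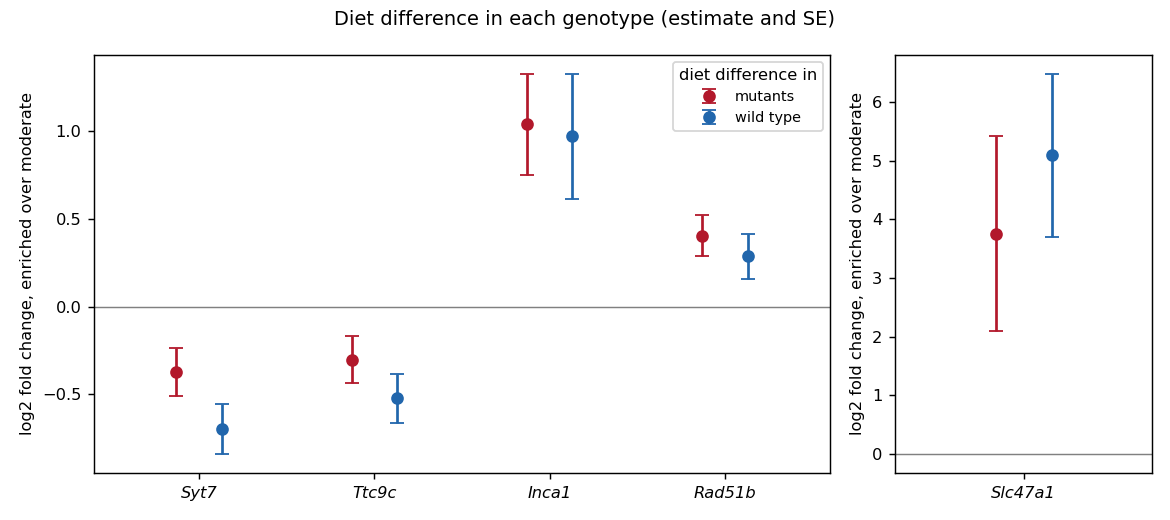
Log2 fold change of the enriched over the moderate diet for each gene, in mutants (left point) and wild type (right point), with SE bars from the fit to all 16 libraries. All 10 values keep 1 sign per gene, and Slc47a1 has its own axis because its values, 3.75 and 5.09, are several times those of the others.

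Genotype, averaged over diets, was not used by the ranking and was tested. Inca1 rose in mutants, with a log2 fold change of 0.90 ± 0.22 (SE; edgeR adjusted p = 0.00544), and Rad51b rose by 0.62 ± 0.08 (adjusted p = 6.07e-05). Erythroid markers moved with genotype: 0 of 9 tested rose and 4 fell, with summed levels of 723 to 3598 CPM (median 1761) in mutants and 1522 to 6546 CPM (median 2895) in wild type. Of 10 endothelial markers 3 rose and 3 fell, with sums of 388 to 474 CPM in mutants and 367 to 451 CPM in wild type. Of 13 head neural and mesenchyme markers 3 rose and 0 fell, with sums of 952 to 1156 CPM (median 1090) in mutants and 957 to 999 CPM (median 978) in wild type. Early neuron (10 tested) and yolk sac markers (9 tested) had 0 calls. Cardiomyocyte (5 tested) and decidual and trophoblast markers (2 tested) each had 0 rises and 1 fall. The part of these cell types in the genotype differences was not tested. The calls of Inca1 and Rad51b stand against a background in which 5202 of 14514 genes passed (35.8%), 2519 of them higher in mutants (17.4%) and 2683 lower (18.5%). On the enriched diet all 4 mutants lay above all 4 wild type libraries for both genes, as for 1619 genes (11.2%). On the moderate diet this held for Rad51b, as for 1233 genes (8.5%), and not for Inca1. Without replicate 2 of moderate diet wild type the values were 0.85 (adjusted p = 0.0129) for Inca1 and 0.65 (adjusted p = 0.000134) for Rad51b, and without moderate diet mutant replicate 3 they were 1.01 (adjusted p = 0.00167) and 0.65 (adjusted p = 3.65e-05).

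Syt7 and Ttc9c did not pass for genotype. Syt7 differed by 0.05 ± 0.10 (edgeR adjusted p = 0.682) and Ttc9c by 0.02 ± 0.09 (adjusted p = 0.885) on the log2 scale. Slc47a1 had a genotype value of -1.40 ± 1.24 on the log2 scale, given as a description because the gene passed the filter only through the 4 high libraries, 1 mutant and 3 wild type. The value was -3.47 without the high mutant library. Over all 16 libraries Inca1 and Rad51b were alike with Pearson's r of 0.86 and Spearman's rho of 0.81, and with group means removed r was 0.22.

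**Figure D4:**
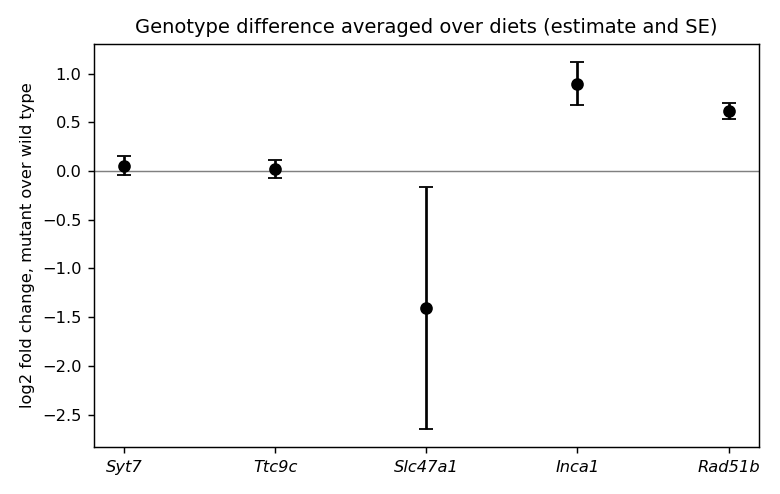
Log2 fold change of mutants over wild type, averaged over the 2 diets, with SE bars, for the 5 genes. Inca1 and Rad51b lie above 0 by several SE, Syt7 and Ttc9c lie within 1 SE of 0, and the bar of Slc47a1 is the widest.

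The genes most like Inca1 over the 16 libraries were Esm1 (Pearson's r = 0.88), a secreted endothelial proteoglycan, Lrrc51 (0.87) and Gaa (0.86), the lysosomal alpha-glucosidase. Their log2 fold changes for genotype were 1.602, 1.32 and 0.53, a description, since the likeness that chose them includes the genotype difference of Inca1. The genes most like Rad51b were Arsa (r = 0.94), the lysosomal arylsulfatase A, Tmem143 (0.93) and Sirt2 (0.93), a deacetylase. Their genotype values, 0.35, 0.44 and 0.29, are likewise a description. With group means removed, r was 0.61, 0.66 and 0.68 for the 3 genes like Inca1 and 0.48, 0.60 and 0.59 for the 3 like Rad51b.

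Of the listed genes within 100 kb of the 5 genes, 39 were tested. None had an unadjusted p under 0.05 for the diet, where 3.62% of all genes did. In all, 23 were higher and 16 lower on the enriched diet. Their log2 fold changes lay between -0.23 and 0.37. Hnrnpul2, a nuclear RNA-binding protein gene 677 bases from Ttc9c, had -0.05 on 426 CPM. Kif1c, a motor of the kinesin family 393 bases from Inca1, had -0.02, and Camta2 on the other side of Inca1, 256 bases away, had 0.13. Zfyve26, 978 bases from Rad51b, had -0.06.

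**Figure D5:**
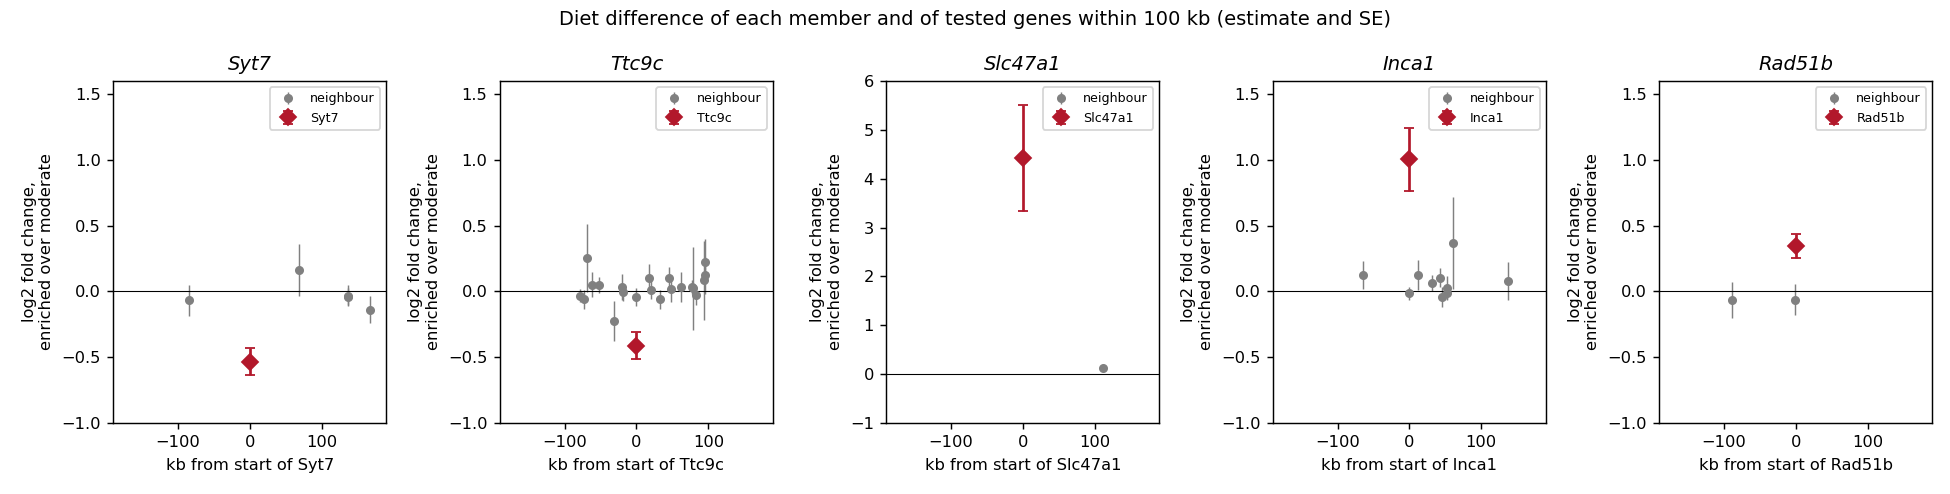
Log2 fold change of the enriched over the moderate diet, with SE bars, for each gene (diamond) and the tested genes within 100 kb of it (circles), by distance between gene starts in kilobases. The 39 neighbours lie between -0.23 and 0.37, and the vertical axis of Slc47a1 is longer than the others.

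Other genes of the pathways were taken from lists written from general knowledge, and no list described here had a gene past the threshold for the diet. Of 14 synaptotagmins tested, relatives of Syt7, 0 passed for diet, as for all 14514 genes tested. Of the 14, 0 had an edgeR unadjusted p under 0.05, where 3.62% of all genes did, and their median log2 fold change was -0.07. For genotype, where 35.8% of all genes tested passed, Syt3 rose (0.40 ± 0.14, edgeR adjusted p = 0.0329) and 2 fell, namely Syt9 (-0.35 ± 0.10, edgeR adjusted p = 0.0104) and Syt13 (-0.38 ± 0.12, adjusted p = 0.0195). Of 23 partners in membrane fusion, 5 rose and 3 fell in mutants, a share near that 35.8%, with the syntaxin Stx4a up by 0.30 (adjusted p = 0.000337) and the vesicle GTPase Rab3a by 0.43 (adjusted p = 0.00769). Their median for diet was 0.05. Medians over all genes tested were -0.00382 for diet and -0.01 for genotype.

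Of 15 genes of the TTC9 family and of chaperone partners with such repeats, 0 rose and 6 fell in mutants, where 17.4% of all genes rose and 18.5% fell, and the median was -0.16. The largest calls by p were Unc45a (-0.39 ± 0.06, edgeR adjusted p = 0.000102) and Ttc4 (-0.24 ± 0.06, adjusted p = 0.00489). The closest relatives of Ttc9c, Ttc9 and Ttc9b, had 0.12 and -0.54 for genotype and -0.13 and 0.32 for diet, and neither passed. Of 8 organic cation, choline and thiamine transporters tested, 2 rose and 1 fell in mutants, near the 35.8% of all genes. The rises were the thiamine carrier Slc19a2 (0.77 ± 0.11, edgeR adjusted p = 0.000126) and the choline transporter family member Slc44a2 (0.43 ± 0.06, adjusted p = 8.27e-05). The fall was Slc22a4 (-1.13 ± 0.35, adjusted p = 0.0199), a carrier of organic cations measured on few reads. Slc22a4 averaged 0.138 CPM in enriched diet mutants and 0.177 CPM in moderate diet mutants, against 0.291 and 0.447 CPM in wild type. Slc22a4 may thus have passed the filter on low counts mainly through wild type libraries, which was not tested. The median of the 8 transporters for diet was 0.06.

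Of 15 genes around cyclin A and CDK2, 2 rose and 6 fell in mutants, against 17.4% and 18.5% of all genes. The rises were the CDK inhibitors Cdkn1a, which encodes p21 (0.75 ± 0.14, edgeR adjusted p = 0.000724), and Cdkn1b, which encodes p27 (0.43 ± 0.08, adjusted p = 0.000839). Other CDK inhibitors went otherwise: Cdkn1c fell (-0.32 ± 0.07, edgeR adjusted p = 0.00403) on 102 CPM, and Cdkn2c (-0.26) and Cdkn2d (0.14) did not pass. For diet Cdkn1a and Cdkn1b also had the smallest edgeR unadjusted p of the list, 0.0152 and 0.0237, with log2 fold changes of 0.41 and 0.22. They were the only 2 of the 15 under 0.05, where 3.62% of all genes were, and neither passed (adjusted p = 0.997). Ccna1, the cyclin partner of Inca1, differed by 0.22 for genotype and -0.01 for diet and did not pass.

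Of 28 folate uptake and one-carbon genes tested, 0 passed for diet and 1 had an unadjusted p under 0.05, near the 3.62% of all genes. That gene was Mthfs (0.32 ± 0.14, edgeR unadjusted p = 0.0308), which encodes the enzyme that returns 5-formyltetrahydrofolate to the pool. Next came the methionine synthase Mtr (-0.11 ± 0.05, unadjusted p = 0.0534), and the median of the list was -0.01. For genotype 5 rose and 7 fell, against 17.4% and 18.5% of all genes, with the mitochondrial enzymes Mthfd1l (0.67 ± 0.06, edgeR adjusted p = 3.22e-06) and Shmt2 (0.81 ± 0.08, adjusted p = 3.98e-06) having the smallest p. Diet values of the 28 genes lay between -0.16 and 0.32 on the log2 scale.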

How the data were processed

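RNA was sequenced in 16 libraries of mouse embryo head tissue, with TruSeq kits, per the labels' protocols, a kind that keeps no strand. Per the submitters' processing notes, reads were aligned to mm10 with TopHat2 2.1.1 and counted with HTSeq 0.9.1, and the notes also name FastQC 0.11.5, SAMtools 1.8 and DESeq2 1.22.2. The sources used here do not give the annotation or counting mode. Each deposited file lists whole read counts by gene symbol, not normalized by the authors. Summary lines of the counting tool were left out of totals, and reads on no feature were 13.7 to 17.0% of uniquely aligned reads.

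The filter kept the 14514 of 24421 genes that reached 10 counts in 4 or more libraries. Counts were scaled by trimmed means of M values and fitted with the quasi-likelihood model of edgeR 4.0.16 in R 4.3.3 to all 16 libraries, with a coefficient per group and the labelled sex. P-values were adjusted by the Benjamini-Hochberg method across the genes tested, with a threshold of 0.05, and an SE is the log2 fold change divided by the square root of F. CPM use the scaled totals, and log2 CPM a prior count of 2. Positions and exon lengths come from GENCODE M21 on mm10, which matched 23977 symbols, and RPKM here is CPM per kilobase of exon. The model was first tested on simulated data. No libraries held identical counts. Alternatives used DESeq2 1.42.0, limma 3.58.1, other scaling and filters, other sex terms, a replicate block, and fewer libraries.

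Named genes are the 5 members, for each the 3 genes with the highest Pearson correlation, overlapping genes, and the 2 with the smallest p of each list. Other names are given as such or by position or family. The difference between diet effects was tested for genes that no single genotype also ranked at the top. The gene list written for Rad51b is not reported here. Members and lists were chosen with earlier results of these data known.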

Additional observations from a re-analysis of the deposited data

Results flagged for a closer look

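In enriched diet mutants, Slc47a1 in replicate 4 stood at 7.39 CPM, far from the other 3 libraries of its group at 0.0453 to 0.212 CPM. In moderate diet wild type, Ttc9c in replicate 1 stood at 136.2 CPM, far from the other 3 at 98.2 to 102 CPM. The gap to the nearest library, divided by the range of the group, was 0.977 for Slc47a1 and 0.896 for Ttc9c. Both were found among 20 groups of 4 libraries, where chance alone flags about 5% of groups.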

How the results depend on the processing

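The diet count of 0 genes averaged over genotypes was 1 with DESeq2, which passed Syt7 (-0.53, adjusted p = 0.00931), and 0 in the other alternatives. DESeq2 also passed 1 gene in wild type, Syt7 (adjusted p = 0.0418), and 3 in mutants, none of them among the 5. Syt7 was chosen on the averaged diet contrast and also ranked first in wild type alone, so neither p-value is a test of it. Leaving out 1 library at a time gave 0 to 1 genes in mutants (Prl8a2, without enriched diet mutant replicate 1). The genotype count of 5202 was 2965 without the 3 libraries whose sex label the counts contradict, of which 2905 were shared, 4178 to 5566 without any 1 library, and 4825 to 5645 otherwise. Inca1 and Rad51b kept their genotype calls in each alternative in which they were tested, at adjusted p of 0.00167 to 0.0436 and 9.78e-10 to 0.00384, and Inca1 was not tested with a filter of 1 CPM in 4 libraries. Each of the 5 genes kept its sign for the averaged diet contrast, which says little because that contrast chose them. Slc47a1 ranked between 1 and 1549 there, with 2.97 by limma-voom in place of 4.42, and the cause was not tested. Its difference between diet effects was -5.53 without enriched diet mutant replicate 4.

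Between groups, the median correlation was -0.00412 for libraries of the same replicate number and -0.04 for different numbers. These pairs include those across the diets, so a pairing of libraries within a diet was not tested. With the replicate block 0 genes passed for diet and 5645 for genotype. Depth limits Inca1, at 4 to 47 counts, and Slc47a1 in 12 libraries. The floors given for counts of 0 cover counting error only, whereas SD and SE include variation between libraries.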
